A study of Mus musculus with 6 samples.

Results

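The genes of MHC class II antigen presentation and of peptide processing were examined in iron-deficient mouse kidneys. The 10 genes were selected by symbol and by function, and all 10 were found among the 24422 genes of the count tables. They are the class II chains H2-Aa, H2-Ab1 and H2-Eb1, the invariant chain Cd74, the peptide-exchange chains H2-DMa and H2-DMb1, the class II regulator Ciita, the inducible proteasome subunits Psmb8 and Psmb9, and the peptide transporter subunit Tap1. All 10 also passed the filter on low counts that left 15145 genes for testing, and each had at least 10 counts in every kidney.

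The study asked how the kidney transcriptome at postnatal day 15 responds to nutritional iron deficiency. In the FeD group, C57BL/6 dams ate a synthetic diet holding 2 to 6 ppm iron. In the Control group the diet held 220 ppm iron. Each group had 3 kidneys from separate pups, sequenced as 6 libraries, and every pup was wild type C57BL/6. Diets began in the dams before mating and were kept through pregnancy and nursing, so the pups met the diet through the dam. The number of litters is not given, and differences between litters and the effect of the diet cannot be told apart.

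Class II molecules are pairs of an alpha and a beta chain that show peptides to CD4 T cells. The invariant chain Cd74 holds the new pair and guides it to endosomes, where proteases cut it away and H2-DM loads the peptide. Dendritic cells, B cells and some macrophages carry class II, kidney tubules and endothelium can gain it under interferon-gamma, and Ciita is the coactivator that switches on the class II promoters. For class I, the proteasome cuts cytosolic proteins and the Tap1/Tap2 pump moves the peptides into the endoplasmic reticulum.

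Counts on genes totalled 18312543, 16189041 and 20374327 in Control kidneys 1, 2 and 3, and 17833878, 13732173 and 20853293 in FeD kidneys 1, 2 and 3. A floor was fixed at 3 counts, which is 0.144 to 0.218 CPM (counts scaled to a common library size) depending on the depth of the library. This floor covers counting error only. The tissue label was checked against 7 kidney markers, and all 7 were tested and abundant. Slc34a1, for example, had 71090, 66017 and 83497 raw counts in Control and 17770, 11499 and 15585 in FeD kidneys, and Umod had 49997, 42166 and 58603 in Control and 34112, 23353 and 54161 in FeD kidneys. FeD kidney 2 stood apart in transcripts of another tissue. It held 1828 counts of Cyp11b1, 2817 of Star and 762 of Cyp11a1, genes of adrenal steroid synthesis, where the other 5 kidneys had at most 6, 219 and 128. The 128 counts of Cyp11a1 were in Control kidney 1, and the remaining 4 kidneys had 4 or 5. Over all genes, FeD kidney 3 was the FeD library farthest from the others of its group, at a chi-square per degree of freedom of 24.0 to FeD kidney 1 and 30.4 to FeD kidney 2, where FeD kidneys 1 and 2 differed by 11.5, a measure that grows with depth. Counts of calls below are therefore given without FeD kidney 2 and over the fits with each kidney left out in turn.

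In FeD kidneys, 7 of the 10 genes were downregulated at an adjusted P under 0.05, 0 were upregulated and 3 did not pass. Among all 15145 tested genes, 3527 were lower (23.3%) and 3397 were higher (22.4%) by the same edgeR quasi-likelihood test with Benjamini-Hochberg adjustment. With a fold change of at least 2 as well, 2 of the 10 were lower, Cd74 and Psmb9, and 0 were higher, where 5.69% of all tested genes were lower and 4.34% were higher. At an unadjusted P under 0.05 in edgeR, 8 were lower and 0 higher, beside 27% and 26.6% of all tested genes. DESeq2 called 7 lower and 0 higher, beside 19.7% and 20.2% of the genes it tested. Limma-voom also called 7 lower and 0 higher, beside 23.9% and 22.1%, but with Ciita (P adj = 0.049) in place of H2-Ab1 (0.052). In 7 of the 10 genes every FeD kidney lay below every Control kidney, as in 29.7% of all tested genes. The median log2 fold change of the 10 genes was -0.88, beside -0.0018 over all tested genes. Without FeD kidney 2, 6 of the 10 were lower and 0 higher, where 3190 of all tested genes were lower and 3353 higher. Without FeD kidney 3 the numbers were again 6 and 0, where 3817 of all tested genes were lower and 3937 higher. Without Control kidney 3, the number lower by at least 2-fold was 4 of the 10 and 849 of all tested genes, beside 862 with all kidneys.

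Levels below are counts scaled by TMM to the mean library size (normalized counts), and group values are mean ± SD of 3 kidneys. In whole kidney RNA, fewer cells carrying a transcript and less of it per cell cannot be told apart.

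H2-Aa, the alpha chain of I-A, stood at 445, 440.3 and 324 normalized counts in Control kidneys 1, 2 and 3, and at 205, 235 and 225 in FeD kidneys 1, 2 and 3. The groups did not overlap, and Control kidney 3 was the lowest of its group. The mean was 403 ± 68.6 in Control and 222 ± 15.3 in FeD kidneys, and H2-Aa was downregulated (log2 fold change -0.86, standard error 0.14, edgeR P adj = 0.0017). H2-Eb1, the beta chain of I-E, stood at 444, 415 and 351 in Control kidneys and at 205, 213 and 225 in FeD kidneys. These groups were likewise apart, and the FeD kidneys lay close together. H2-Eb1 was downregulated from a mean of 403 ± 47.3 to 214 ± 10.2 (log2 fold change -0.91, standard error 0.11, edgeR P adj = 0.00050). With FeD kidney 2 left out, both log2 fold changes were -0.88. H2-Aa and H2-Ab1 overlap on opposite strands over 0.856% and 1.03% of their exon bases.

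H2-Ab1, the beta chain that pairs with H2-Aa, stood at 414, 435 and 322 normalized counts in Control kidneys and at 328, 299.9 and 246 in FeD kidneys. Here the groups overlapped, because FeD kidney 1 lay above Control kidney 3. The mean was 390.3 ± 60.0 in Control and 291 ± 41.6 in FeD kidneys (log2 fold change -0.42, standard error 0.15, edgeR P adj = 0.047). This call was close to the threshold. It was lost without Control kidney 1 (P adj = 0.13), Control kidney 2 (0.16), FeD kidney 2 (0.084) or FeD kidney 3 (0.11) in edgeR, and over all alternatives its P adj ranged from 0.017 to 0.16.

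Cd74, the invariant chain, was the most abundant of the 10 genes, with 1172, 1099.6 and 774 normalized counts in Control kidneys and 462, 417 and 394 in FeD kidneys. The highest FeD kidney was well below the lowest Control kidney. Its log2 fold change of -1.26 (standard error 0.16, edgeR P adj = 0.00050) lay between -1.42 and -1.14 with each kidney left out in turn, and was -1.23 without FeD kidney 2. Among all tested genes, 4.24% had a lower fold change than Cd74.

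**Figure D1:**
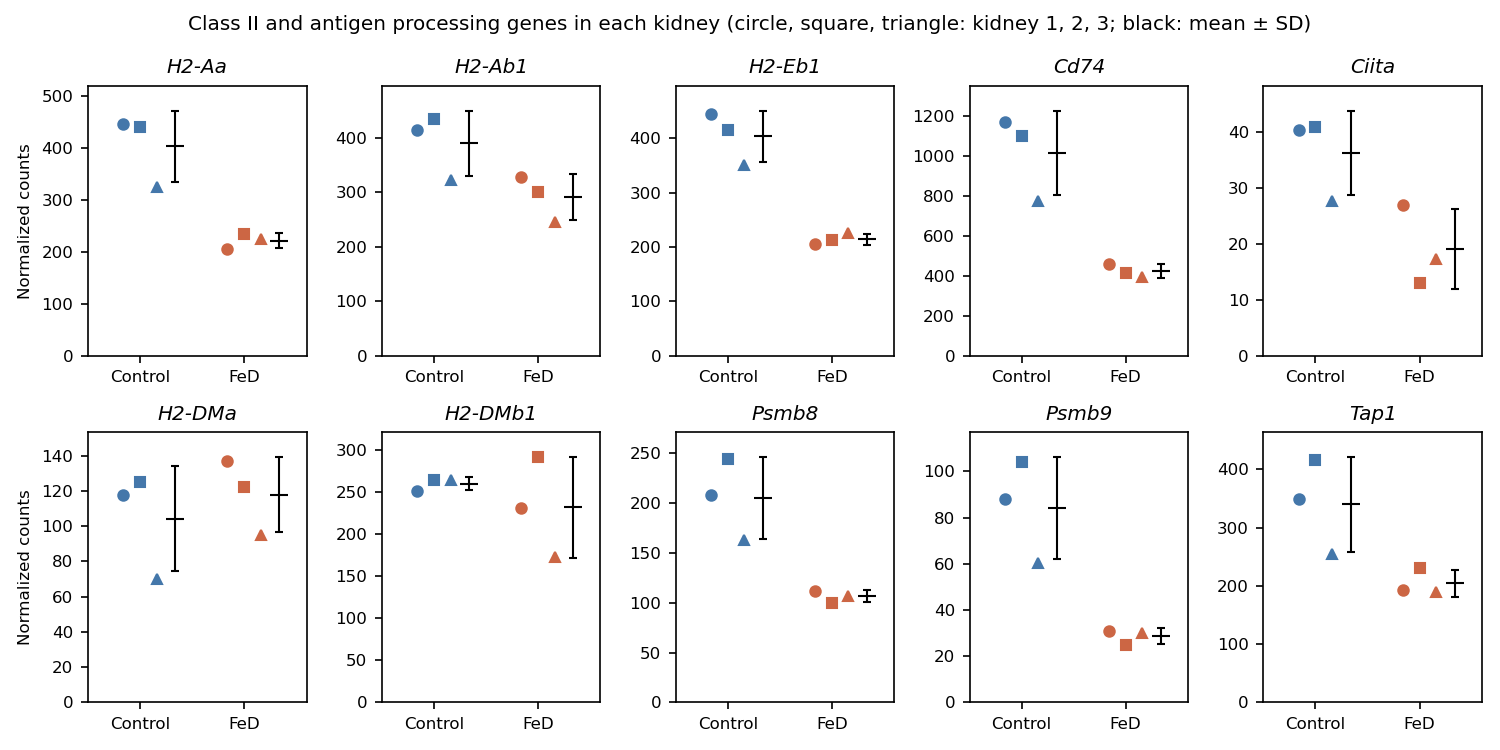
Normalized counts (vertical axes, each from 0) of the 10 genes in 3 Control (blue) and 3 FeD (orange) kidneys, with the group mean ± SD in black. For H2-Aa, H2-Eb1, Cd74, Ciita, Psmb8, Psmb9 and Tap1 every FeD kidney lies below every Control kidney, and Control kidney 3 (triangle) is the lowest of its group for 9 of the 10 genes.

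Ciita, the regulator, was the least abundant of the 10, with 42, 37 and 31 raw counts in Control kidneys 1, 2 and 3 and 27, 10 and 20 in FeD kidneys 1, 2 and 3. After normalization the groups were narrowly apart, with 27.6 in the lowest Control and 27.0 in the highest FeD kidney. The mean was 36.3 ± 7.52 in Control and 19.1 ± 7.18 in FeD kidneys, a log2 fold change of -0.90 (standard error 0.33) that did not pass (edgeR P adj = 0.053). Ciita passed without FeD kidney 1 (P adj = 0.030), with at least 10 counts required in every kidney (0.045) and under limma-voom (0.049). It did not pass without FeD kidney 2 (log2 fold change -0.69, P adj = 0.13) or FeD kidney 3 (-0.81, 0.11) in edgeR. Over all alternatives P adj ranged from 0.030 to 0.16, and DESeq2 gave 0.12.

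The chains of H2-DM, which exchanges peptides on class II in endosomes, did not pass. H2-DMa stood at 118, 125 and 70.3 normalized counts in Control kidneys and at 137, 122 and 94.95 in FeD kidneys (log2 fold change 0.18, standard error 0.25, edgeR P adj = 0.58). H2-DMb1 stood at 252, 264 and 265 in Control and at 232, 292 and 173 in FeD kidneys (log2 fold change -0.17, standard error 0.18, edgeR P adj = 0.45). The groups overlapped for both genes, and the FeD kidneys spread more widely for H2-DMb1 than the Control kidneys did. Without FeD kidney 2 the log2 fold changes were 0.17 for H2-DMa and -0.35 for H2-DMb1, and neither passed. Of the 100-base windows of H2-DMb1 transcripts, 13.8% recur in its neighbour H2-DMb2, so uniquely mapped reads can undercount it.

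Per kilobase of annotated exons, Cd74 had the highest level in Control kidneys, 720.1 normalized counts per kilobase. H2-Eb1 followed at 339, then H2-Ab1 at 237, H2-Aa at 203 and H2-DMb1 at 176. H2-Ab1 lay above H2-Aa in all 3 Control and all 3 FeD kidneys. Before the division by length, H2-Aa lay above H2-Ab1 in all 3 Control kidneys (445, 440.3 and 324 against 414, 435 and 322). H2-Ab1 lay above H2-Aa in the FeD kidneys either way. The lengths used, 1.987 kb for H2-Aa and 1.644 kb for H2-Ab1, join all annotated exons of a gene. The order of these 2 genes in Control therefore depends on the length chosen. H2-Aa lay above H2-DMb1 in 2 of the 3 Control kidneys and in 0 of the 3 FeD kidneys, so their order was within the spread in Control. Psmb8 at 74.96 lay above H2-DMa at 63.6 and Tap1 at 62.1 in all 3 Control kidneys, the order of H2-DMa and Tap1 was within the spread (2 of 3), and Psmb9 at 23.01 and Ciita at 4.63 were lowest. In FeD kidneys Cd74 stood at 301 per kilobase, H2-Eb1 at 180.3, H2-Ab1 at 177, H2-DMb1 at 157 and H2-Aa at 112. H2-Eb1 lay above H2-Ab1 in 1 of the 3 FeD kidneys and H2-Ab1 above H2-DMb1 in 2, so their order was within the spread. Psmb8 lay above H2-DMa in 0 of the 3 FeD kidneys.

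The fall of Cd74 was compared with that of each chain as a ratio of raw counts within 1 library, which no library scaling can move. These ratios were chosen after the fold changes had been seen and are given with no test. Cd74 had 2.83, 2.53 and 2.40 counts for each count of H2-Ab1 in Control kidneys and 1.41, 1.39 and 1.604 in FeD kidneys. The groups did not overlap, and the FeD mean was 0.567 of the Control mean. For H2-Aa the ratio was 2.51 ± 0.123 in Control and 1.93 ± 0.284 in FeD kidneys, without overlap. For H2-Eb1 it was 2.50 ± 0.256 and 1.99 ± 0.253, and here FeD kidney 1 at 2.25 lay above Control kidney 3 at 2.20.

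Of 5 other class II genes listed, only H2-Ob, a chain of the H2-DM inhibitor H2-O, had enough counts for a test. H2-Ob had 19, 14 and 16 raw counts in Control kidneys and 6, 9 and 5 in FeD kidneys (log2 fold change -1.18, standard error 0.41, edgeR P adj = 0.046), and it was not called by DESeq2. The call held without FeD kidney 2 (log2 fold change -1.60, edgeR P adj = 0.017) and was lost without any of the other 5 kidneys, with an edgeR P adj of up to 0.14. H2-Oa and H2-Eb2 had at most 3 counts in any kidney, H2-DMb2 had 5 to 13, and H2-Ea-ps was at 0 in all 6. C57BL/6 mice carry a defective I-E alpha gene, so H2-Eb1 transcripts in this strain have no matching alpha chain.

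Psmb8, an inducible catalytic subunit of the immunoproteasome, stood at 208, 244 and 163 normalized counts in Control kidneys and at 112, 99.98 and 107 in FeD kidneys. The FeD kidneys were tightly grouped below all Control kidneys. The mean of Psmb8 was 205 ± 40.9 in Control and 106 ± 6.03 in FeD kidneys (log2 fold change -0.94, standard error 0.17, edgeR P adj = 0.0027). Psmb9, another inducible subunit, stood at 88.2, 104 and 60.5 in Control and at 31.0, 24.7 and 30.2 in FeD kidneys. It had the largest fall of the 10 genes, with means of 84.2 ± 22.0 and 28.6 ± 3.45 (log2 fold change -1.54, standard error 0.26, edgeR P adj = 0.0020). Without FeD kidney 2 the log2 fold changes were -0.88 for Psmb8 and -1.43 for Psmb9.

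Tap1, a subunit of the peptide pump, stood at 349.9, 416 and 254 normalized counts in Control kidneys and at 193, 231 and 189.9 in FeD kidneys. The groups were apart, though Control kidney 3 and FeD kidney 2 lay near each other. Its mean was 340.1 ± 81.2 in Control and 205 ± 22.96 in FeD kidneys (log2 fold change -0.73, standard error 0.18, edgeR P adj = 0.012), and the log2 fold change was -0.80 when FeD kidney 2 was left out. Psmb9 and Tap1 lie head to head on opposite strands and share 5.79% and 3.87% of their exon bases, Gm20496 covers 6.83% of those of Psmb8, and Gm20496 and Gm15821 cover 18.5% of those of Tap2. The strand setting of the counting is not given, so some reads of these pairs cannot be told apart.

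The immunoproteasome has 3 further listed components, and all 3 were lower, beside 23.3% of all tested genes. Psmb10, the remaining inducible catalytic subunit, had means of 438 ± 27.3 and 269 ± 18.3 normalized counts (log2 fold change -0.70, edgeR P adj = 0.00071). Psme2 and Psme1, the subunits of the PA28 activator, fell by 0.61 and 0.47 on the log2 scale. For both, every FeD kidney lay below every Control kidney, as in 29.7% of all tested genes. All 3 were again lower with any kidney left out, and 40.3% of the 100-base windows of Psme2 recur in Psme2b-ps. Of 14 constitutive proteasome genes, 7 were lower and 0 higher, beside 23.3% and 22.4% of all tested genes. The log2 fold changes of the 14 ran from -0.34 for Psmb6 to 0.07 for Psmb1, with a median of -0.16. At an unadjusted P under 0.05 in edgeR again 7 were lower and 0 higher. DESeq2 called 6 lower and 0 higher, and 5 were lower when FeD kidney 2 was left out. With any of the Control kidneys left out 4 were lower. The largest of these falls were those of Psmb6, Psma4 (-0.30), Psmb5 (-0.29) and Psmb2 (-0.27), and Psmb4 was the most abundant gene of the list.

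Each inducible subunit was set against the constitutive subunit whose place it takes, again as a ratio of raw counts within a library. Psmb9 stood at 4.22%, 4.92% and 2.86% of Psmb6 in Control kidneys and at 1.795%, 1.551% and 1.796% in FeD kidneys. Psmb8 stood at 14.4%, 17.1% and 10.02% of Psmb5 in Control and at 8.48%, 8.32% and 9.30% in FeD kidneys. Psmb10 stood at 19.98%, 21.6% and 20.7% of Psmb7 in Control and at 13.9%, 13.8% and 16.4% in FeD kidneys. All 3 ratios were lower in every FeD kidney than in every Control kidney. The FeD mean was 0.429 of the Control mean for Psmb9, 0.629 for Psmb8 and 0.707 for Psmb10. The exact two-sided permutation test gave P = 0.10 for each (0.10 after Benjamini-Hochberg adjustment over the 3 ratios), the smallest P that 3 kidneys against 3 allow.

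**Figure D2:**
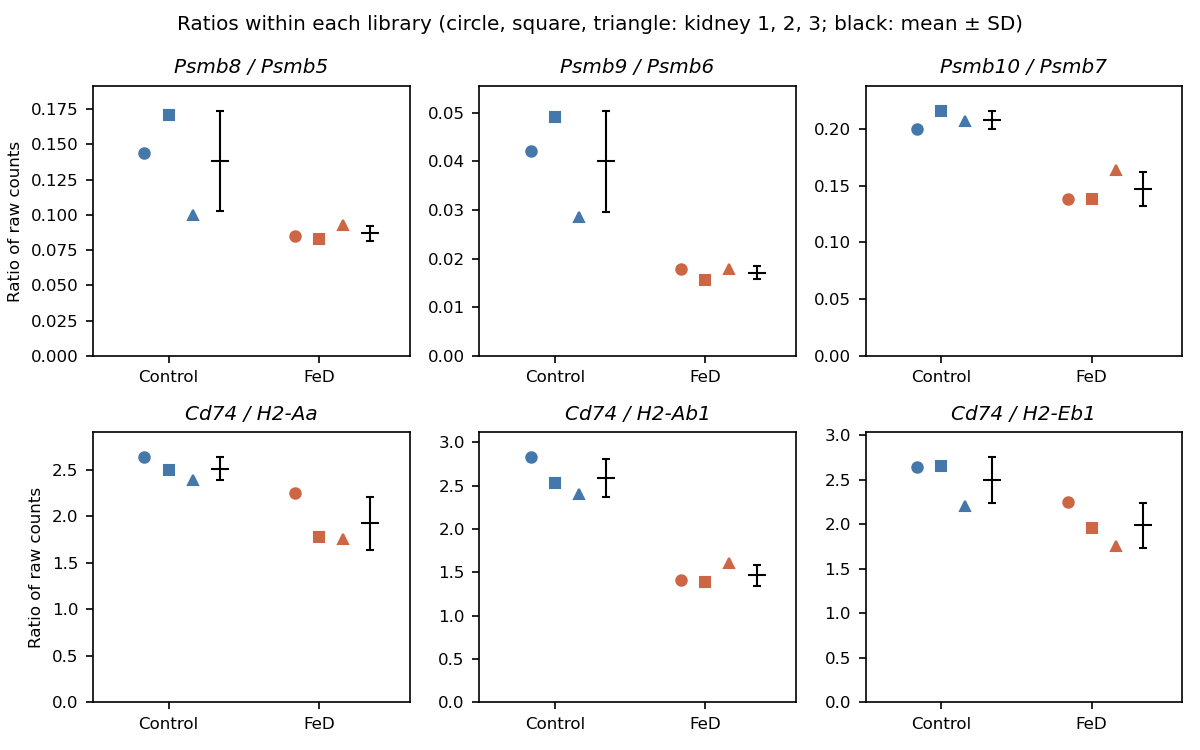
Ratios of raw counts within each library (vertical axes, each from 0) for 3 Control (blue) and 3 FeD (orange) kidneys, with mean ± SD in black. The upper row sets inducible against constitutive proteasome subunits and the lower row sets Cd74 against each class II chain; only Cd74 to H2-Eb1 overlaps between groups.

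Class I presentation was described by 14 genes, of which 6 were lower, 0 higher and 8 did not pass, with a median log2 fold change of -0.23. Among all tested genes 23.3% were lower and 22.4% higher. Nlrc5, the coactivator of class I genes and a relative of Ciita, had 59, 67 and 53 raw counts in Control kidneys and 22, 19 and 14 in FeD kidneys. Its log2 fold change was -1.61 (standard error 0.32, edgeR P adj = 0.0044), without overlap. H2-M3 (-0.85), the chaperone Calr (-0.60) and Tap2 (-0.53), the partner of Tap1, were also lower, as were H2-T23 (-0.51) and Pdia3 (-0.21). The classical class I chains H2-K1 and H2-D1 did not pass (log2 fold changes -0.29 and -0.25, edgeR P adj = 0.058 and 0.052), nor did B2m (-0.11). H2-K1 passed without Control kidney 3 (edgeR P adj = 0.029) or FeD kidney 1 (0.042), and H2-D1 passed in 0 of the 6 fits with each kidney left out. With FeD kidney 2 left out, 5 were lower and 0 higher, and 4 to 6 were lower over the 6 fits with each kidney left out, of which H2-M3 passed in 2 and Pdia3 in 1. At an unadjusted P under 0.05 in edgeR 8 were lower and 0 higher. The abundant chaperones Calr and Pdia3 serve protein folding in general, and class I genes have close relatives whose reads can be lost by unique mapping.

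Among the proteases that cut Cd74 and antigens in endosomes, more were called higher than lower. The endosomal list held 7 genes, the proteases with the thiol reductase Ifi30 and the ubiquitin ligase March1. Of these 4 were higher and 2 lower, beside 22.4% and 23.3% of all tested genes. Ctss, the protease known for the last cut of Cd74 in antigen-presenting cells, had 111, 109 and 104 raw counts in Control kidneys and 299, 248 and 348 in FeD kidneys (log2 fold change 1.53). Ctsl (0.64), Ctsd (0.42) and Lgmn (0.30) were also higher, all of them proteases. The protease Ctsb (-0.37) and Ifi30 (-0.20) were lower, and March1 did not pass (0.09). Lgmn passed in 3 and Ifi30 in 1 of the 6 fits with each kidney left out. Leaving out FeD kidney 2 gave 4 higher and 1 lower, leaving out any of the Control kidneys gave 3 higher and 1 lower, and leaving out FeD kidney 1 gave 4 higher and 1 lower. Fdft1 overlaps 16.2% of the exon bases of Ctsb. Ctsl, Ctsd, Ctsb and Lgmn are abundant lysosomal enzymes of kidney tubules, with 8006 to 19550 raw counts per kidney, and do not mark antigen-presenting cells.

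Of 17 listed genes of the interferon-gamma pathway 16 were tested, with 7 lower, 4 higher and a median log2 fold change of -0.47, where 23.3% of all tested genes were lower and 22.4% higher. On the receptor side, Ifngr1 had means of 837 ± 31.0 in Control and 1937 ± 174 in FeD kidneys (log2 fold change 1.21), and Jak2 (0.90), Ifngr2 (0.34) and Jak1 (0.23) were higher too. On the response side, Gbp2 (-1.68), Igtp (-1.41), Socs1 (-1.21), Gbp3 (-1.04) and Irgm1 (-0.54), all inducible by interferon, were lower. Cxcl9, a chemokine induced by interferon-gamma, was lower as well, with 20, 22 and 13 raw counts in Control kidneys and 2, 1 and 0 in FeD kidneys. Cxcl10, another such chemokine, had 47, 33 and 31 raw counts in Control and 80, 41 and 54 in FeD kidneys. Its log2 fold change of 0.72 did not pass (edgeR P adj = 0.074), though after normalization every FeD kidney lay above every Control kidney, and it passed only without FeD kidney 3 (0.037) among the fits with 1 kidney left out. The factors Irf1 (-0.25, edgeR P adj = 0.093) and Irf8 (0.33, edgeR P adj = 0.077) did not pass, and the transcript of interferon-gamma itself, Ifng, had at most 1 count in any kidney, below the floor. With FeD kidney 2 left out, 6 genes of the list were lower and 4 higher, and over the fits with each kidney left out 6 to 8 were lower and 3 to 6 higher. Socs1 (edgeR P adj = 0.046) was called in only 1 of those 6 fits.

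Transcripts of the factors that bind class II promoters beside Ciita mostly did not pass. Of 7 listed genes only Nfyc, the most abundant, was lower (log2 fold change -0.29) and 0 were higher, beside 23.3% and 22.4% of all tested genes. Without FeD kidney 2 again 1 was lower and 0 higher. Without FeD kidney 3, 2 were lower and 2 higher, among them Nfya (-0.55, edgeR P adj = 0.0010) and Rfxank (0.35, edgeR P adj = 0.033). At an unadjusted P under 0.05 in edgeR, 2 were lower and 2 higher, and DESeq2 and limma-voom each called 1 lower and 0 higher. With all kidneys Nfya (-0.37, edgeR P adj = 0.067) and Rfxank (0.28, edgeR P adj = 0.071) lay just outside the threshold. Rfx5 stood at 421 ± 18.0 and 446 ± 36.8 normalized counts. Genes on the opposite strand overlap 26.8% of the exon bases of Rfx5 (B230398E01Rik) and 24.5% of those of Rfxank (Nr2c2ap), so reads of these cannot be told apart either. Of the costimulatory and coinhibitory genes 4 of 6 were tested. The costimulatory Cd86 was higher (0.76, edgeR P adj = 0.044) and the coinhibitory Cd274 was lower (-0.84, edgeR P adj = 0.032). Icosl, the most abundant, did not pass (0.20, edgeR P adj = 0.090), though every FeD kidney lay above every Control kidney. DESeq2 called 1 of the 6 lower and 0 higher, limma-voom 0 lower and 1 higher, and leaving out FeD kidney 2 gave 2 higher and 1 lower. Each call was lost in some fits with 1 kidney left out, Cd86 without Control kidney 2 or 3 or FeD kidney 1 (edgeR P adj up to 0.15) and Cd274 without Control kidney 1 or 2 or FeD kidney 1 or 3 (up to 0.13).

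**Figure D3:**
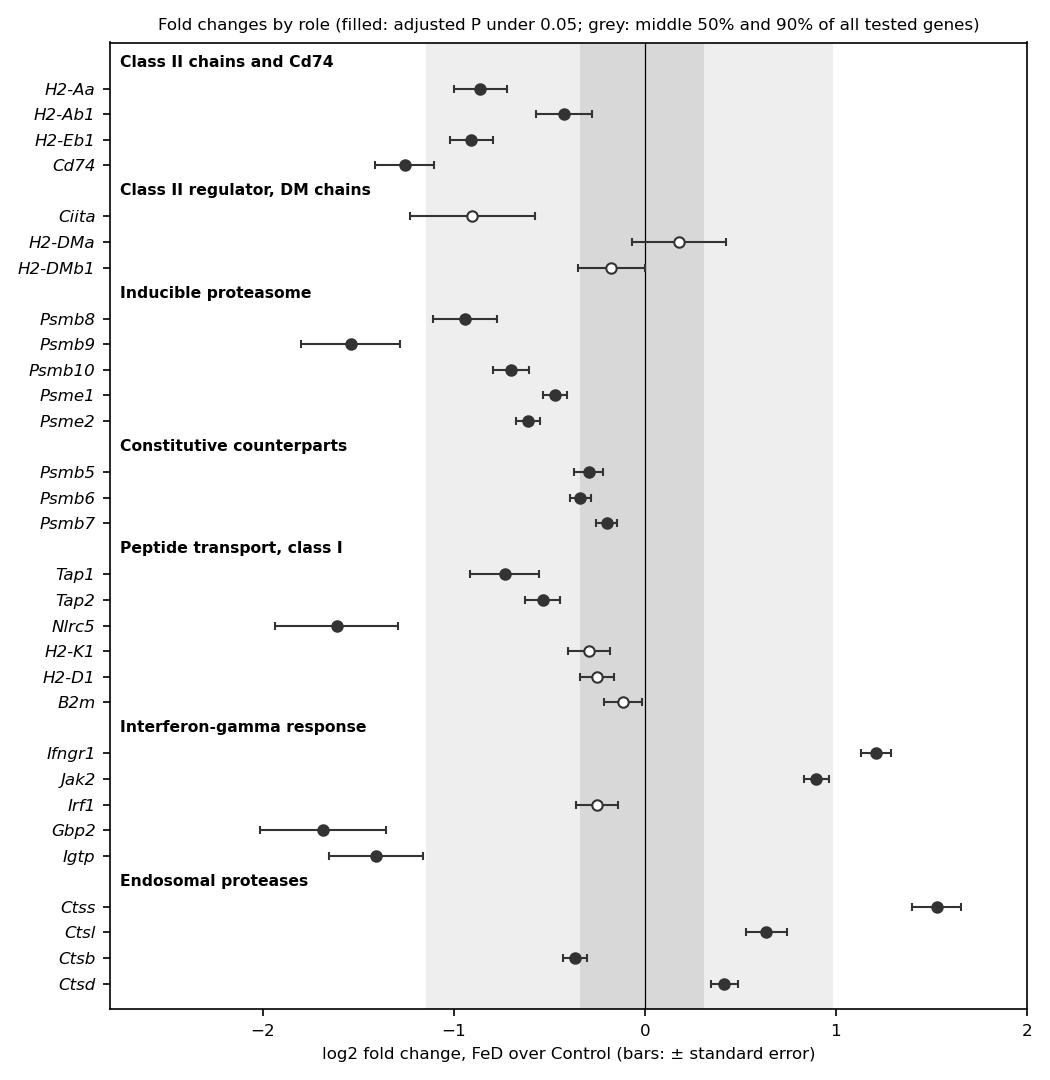
Log2 fold changes of FeD over Control (horizontal axis) with standard errors, for the 10 genes and a selection from the other lists, grouped by role; filled points passed an adjusted P under 0.05. The grey bands hold the middle 50% and 90% of all 15145 tested genes; class II chains and inducible proteasome subunits lie left of 0, while Ifngr1, Jak2, Ctss, Ctsl and Ctsd lie right of it.

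Marker lists of the cell types that carry class II were set beside these falls, as CPM summed over each list. The calls in each list stand beside 23.3% lower and 22.4% higher among all tested genes. Dendritic cell markers summed to 24.6, 24.9 and 19.8 CPM in Control kidneys and to 22.1, 27.6 and 25.9 CPM in FeD kidneys, which overlap. Of 10 genes 7 were tested, 1 was lower (Batf3, -0.99) and 0 higher, in all kidneys and without FeD kidney 2. Batf3 did not pass without Control kidney 2 (edgeR P adj = 0.085) or Control kidney 3 (0.055). Clec9a, a marker of cross-presenting dendritic cells, stood at 45.4 ± 11.4 and 47.5 ± 2.35 normalized counts, Itgax at 20.5 ± 4.30 and 16.2 ± 2.55, and the most abundant gene was Zbtb46, with 168 to 276 of the 380 to 536 raw counts summed per kidney. The 3 genes with too few counts for a test were Ccr7, with 4, 9 and 4 raw counts in Control and 2, 1 and 3 in FeD kidneys, Cd209a, with 7, 5 and 12 against 2, 2 and 10, and Flt3, with 7, 3 and 3 against 7, 3 and 10. After normalization every FeD kidney lay below every Control kidney for Ccr7 and the groups overlapped for Cd209a and Flt3. Wdfy4 was higher under limma-voom but not in edgeR (edgeR P adj = 0.056, log2 fold change 0.73), where it passed only without Control kidney 2 (0.041).

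B cell markers summed to 5.85, 10.1 and 4.28 CPM in Control kidneys and to 2.52, 3.27 and 2.80 CPM in FeD kidneys, without overlap. The defining marker Ms4a1 had 11, 18 and 10 raw counts in Control and 0, 0 and 0 in FeD kidneys. Of 8 genes only 2 had enough counts for a test, with Cd79a lower (log2 fold change -2.38, standard error 0.48, edgeR P adj = 0.0048) and Cd79b, the most abundant, not passing (-0.08). With FeD kidney 2 left out, 5 genes were tested and 4 were lower, and without Control kidney 3, FeD kidney 1 or FeD kidney 3 each, 5 were tested and 3 were lower. DESeq2 called 3 lower.

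T and NK cell markers summed to 8.48, 10.8 and 8.77 CPM in Control and to 5.21, 5.38 and 4.35 CPM in FeD kidneys, also without overlap. Of 10 genes 3 were tested and 2 were lower, Cd8a (-2.22) and Cd4 (-1.63), while Lck did not pass (0.11). Lck was the most abundant in every kidney but Control kidney 3, where Cd8a had 65 raw counts against 50. Again 2 were lower with FeD kidney 2 or any other kidney left out. Of the genes with too few counts for a test, Cd3e had 6, 8 and 6 raw counts in Control and 1, 2 and 1 in FeD kidneys. Cd3d had 5, 6 and 4 against 3, 3 and 4. After normalization every FeD kidney lay below every Control kidney for Cd3e, Cd3g and Ncr1. The groups overlapped for Cd3d, Cd2, Nkg7 and Klrb1c. Each of these lymphocyte lists had very few counts, at most 176 raw counts summed per kidney, so small differences were not detectable at this depth.

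Macrophage markers were higher on balance, with summed levels of 201, 213 and 205 CPM in Control and 229, 259 and 236 CPM in FeD kidneys. Of 11 genes 6 were higher and 1 was lower, beside 22.4% and 23.3% of all tested genes. The higher genes were led by Cd163 (1.38), Cd68 (1.12), Mrc1 (0.74) and C1qc (0.55). The lower gene was Csf1r (-0.45), the most abundant of the list in Control kidneys. Hmgxb3 on the opposite strand overlaps 16.7% of the exon bases of Csf1r. Mertk, next in abundance in Control kidneys, was higher (0.46). In every FeD kidney Mertk was the most abundant of the list, with a mean of 1405 normalized counts against 1032 for Csf1r. Adgre1 did not pass (-0.39, edgeR P adj = 0.19). Leaving out FeD kidney 2 gave 5 higher and 1 lower, leaving out FeD kidney 3 gave 7 higher and 2 lower, and the number higher fell to 4 without Control kidney 1 or 3. Monocyte and neutrophil markers summed to 46.7, 58.5 and 38.0 CPM in Control and 58.1, 74.9 and 71.5 CPM in FeD kidneys, with Itgam (1.37) and Cd14 (0.52) higher of 8 tested of 9, 0 lower, and Lyz2 most abundant. Without FeD kidney 2 again 2 were higher and 0 lower, and over the fits with each kidney left out 1 to 3 were higher, with 1 without Control kidney 1 or 3. Cd14 passed in only 1 of the 6, that without FeD kidney 2. Leukocyte markers summed to 37.4, 44.0 and 31.2 CPM in Control and 40.6, 40.9 and 47.0 CPM in FeD kidneys. Of the 5 genes Ptprc was higher (0.56, edgeR P adj = 0.047) and 0 were lower (1 at an unadjusted P under 0.05). Ptprc was the most abundant of them in every kidney but Control kidney 3, where Laptm5 had 225 raw counts against 181. The Ptprc call held without FeD kidney 2 (edgeR P adj = 0.021) and was lost without any of the other 5 kidneys (up to 0.16) and with library size alone as the scaling. Without Control kidney 3, Coro1a was lower (edgeR P adj = 0.043), which did not pass with all kidneys (0.051). The part of any cell type's abundance in the falls of class II transcripts was not tested.

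Endothelial markers summed to 1007, 1020.5 and 988 CPM in Control and 680.2, 822 and 890.0 CPM in FeD kidneys, without overlap. Pecam1 was the most abundant in Control kidney 1 and in every FeD kidney, and Tie1 in Control kidneys 2 and 3. Pecam1 did not pass (0.09, edgeR P adj = 0.52). Of 8 genes 6 were lower and 1 higher, beside 23.3% and 22.4% of all tested genes. The lower genes were led by Emcn (-1.04), Kdr (-0.59), Tek (-0.49) and Tie1 (-0.43), and Flt1 was higher (0.45). Cdh5, among the most abundant that passed, was also lower (-0.42). When FeD kidney 2 was left out, 3 were lower and 0 higher, as without Control kidney 2, and Flt1 was not called without Control kidney 1 or 3 either. Kidney markers summed to 11524, 11903 and 12768 CPM in Control and 7301, 6023 and 8229.6 CPM in FeD kidneys. Of these 7 genes 4 were lower, Slc34a1 (-2.22), Slc12a3 (-1.56), Cdh16 (-0.60) and Lrp2 (-0.48), and Aqp2 was higher (1.13). Without FeD kidney 2 again 4 were lower and 1 higher, and over the fits with each kidney left out 3 to 6 were lower, with 6 without FeD kidney 3. The part of these changes in the class II results was not tested.

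Markers of neighbouring tissues summed to 52.7, 52.3 and 43.9 CPM in Control kidneys and to 26.9, 412 and 26.6 CPM in FeD kidneys, where the high value is FeD kidney 2. Of 7 genes 4 were tested. The fat markers Plin1 (-2.42) and Adipoq (-0.97) were lower, and Star was higher (3.16, edgeR P adj = 0.049). Star was the most abundant of the list in FeD kidneys 2 and 3 alone (2817 and 219 raw counts). It lay below Adipoq in Control kidneys (173, 142 and 140 against 366, 318 and 307) and in FeD kidney 1 (179 against 182). The Star call was lost without FeD kidney 2 (log2 fold change 0.33, edgeR P adj = 0.14) and without any of the Control kidneys. It was also lost with library size alone as the scaling and under limma-voom. DESeq2 gave Star no P and called 0 of the list higher. Adipoq was not called without Control kidney 1 (edgeR P adj = 0.051) or Control kidney 2 (0.055). Ccl21a, a chemokine of lymph node stroma, was at 0 in all 6 kidneys, but 99.7% of its 100-base windows recur in other genes, so its reads can be lost by unique mapping. Cr2, on B cells and follicular dendritic cells, did not pass (0.59, edgeR P adj = 0.079). Erythroid markers summed to 18.9, 47.9 and 27.9 CPM in Control and 23.7, 11.3 and 5.17 CPM in FeD kidneys. Of 6 genes 2 were tested and 0 passed in edgeR (1 lower at an unadjusted P under 0.05, and 1 lower under DESeq2 and limma-voom each), among them Alas2 (-1.17), the most abundant. Without FeD kidney 2 again 0 passed, and 1 was lower without Control kidney 1 or FeD kidney 1. Apex2 overlaps 12.9% of the exon bases of Alas2 on the opposite strand. The other 4 genes, all globins, were listed at 0 in every kidney. Of their 100-base windows, 43.4% to 76.1% recur in another globin gene, so reads can be lost by unique mapping. Their 0 counts are therefore no measure of globin transcripts.

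**Figure D4:**
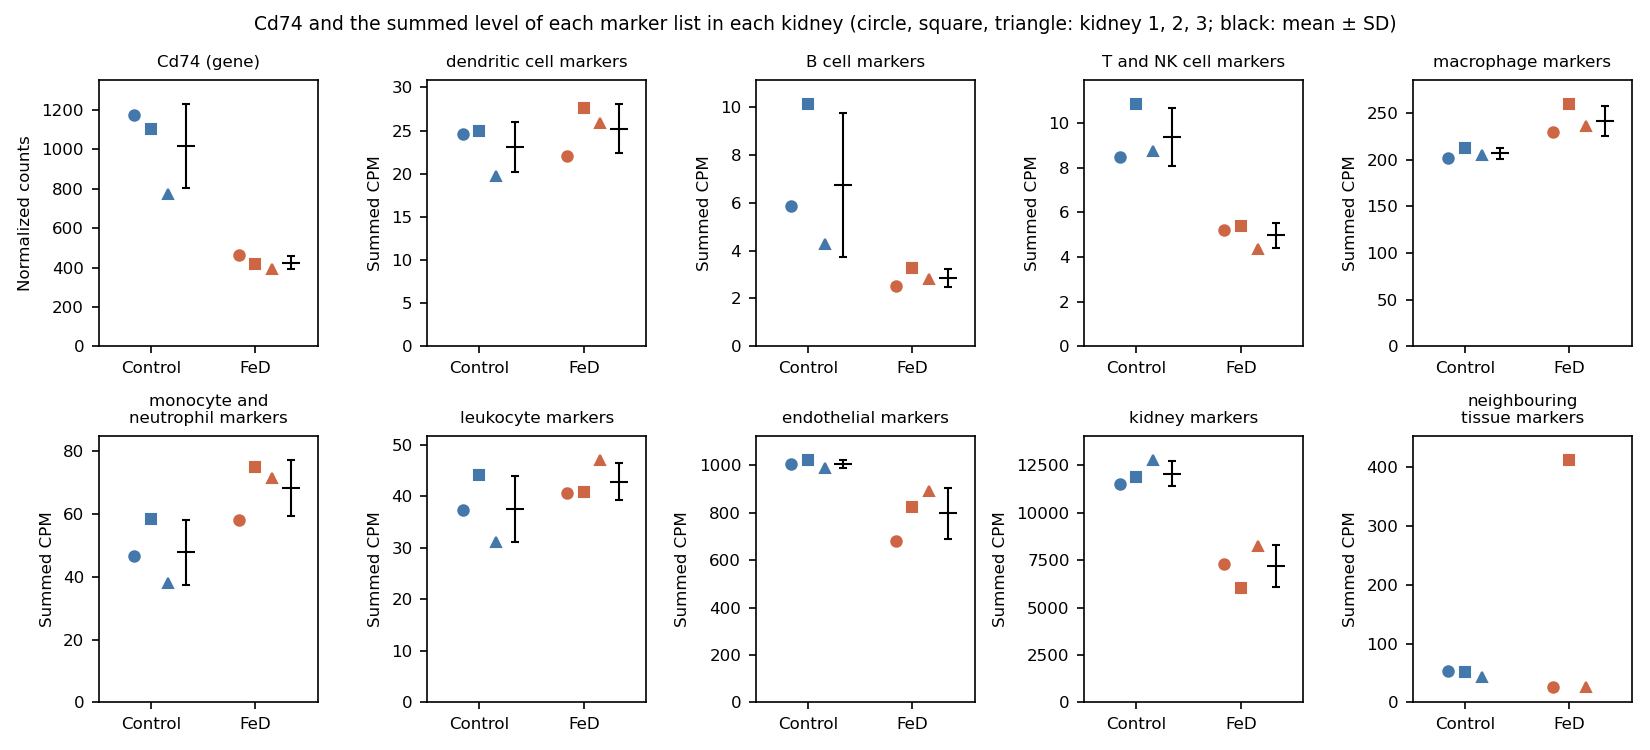
Normalized counts of Cd74 (first panel) and summed CPM of 9 marker lists (vertical axes, each from 0) in 3 Control (blue) and 3 FeD (orange) kidneys, with mean ± SD in black except for neighbouring tissues. B cell and T and NK cell lists lie lower in FeD kidneys, macrophage markers lie higher, dendritic cell markers overlap, and FeD kidney 2 (square) stands out at 412 CPM for neighbouring tissues.

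Within groups, the class II chains moved together mainly through Control kidney 3. The mean deviation of H2-Aa, H2-Ab1, H2-Eb1 and Cd74 from their group means, in log2 CPM, was 0.16, 0.12 and -0.28 in Control kidneys 1, 2 and 3 and 0.03, 0.03 and -0.06 in FeD kidneys 1, 2 and 3. Tap1 (0.86), Psmb8 (0.84), Psmb9 (0.81) and H2-DMa (0.93) had high Pearson correlations with this profile over the 6 kidneys, Ciita an intermediate value (0.55) and H2-DMb1 a low value (0.12). Of 12924 other genes averaging 50 or more normalized counts, the closest were Nol8 (0.999), Gspt1 (0.993), Ddx5 (0.990), BC018473 (0.984) and Tsga10 (0.983). Only BC018473 of these differed between groups, with a log2 fold change of -2.05 (edgeR P adj = 0.00049). With group means removed, the 6 points share 1 low kidney, and 36 genes exceeded 0.95, so these correlations are a description.

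Position was shared by 8 of the 10 genes. In the mm9 annotation they lie within 181 kb of chromosome 17, from the start of H2-DMa at 34272127 to the end of H2-Eb1 at 34453144. Cd74 lies on chromosome 18 (60963502 to 60972300) and Ciita on chromosome 16 (10480237 to 10527657). Between the outermost genes on chromosome 17 lay 3 other genes of the tables, of which 2 were tested, Tap2 (-0.53) and H2-Ob (-1.18). Both were lower, beside 23.3% of all tested genes. The H2-Ob call (edgeR P adj = 0.046) held in 1 of the 6 fits with each kidney left out and was not made by DESeq2. A part of position in these falls was not tested. H2-DMb2, with too few counts for a test, had means of 6.55 in Control and 10.7 in FeD kidneys as normalized counts. Every FeD kidney lay above every Control kidney for H2-DMb2, and it passed in 0 of the 4 fits with 1 kidney left out that tested it. H2-DMa and H2-DMb1, which did not pass, lie in the same interval as H2-Aa, Psmb9 and Tap1.

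Promoters, from 250 bases before to 50 after the start, were available in RefSeq's GRCm38.p6 table for 7 of the 10 genes, H2-Aa, H2-Eb1, H2-DMa, H2-DMb1, Psmb8, Psmb9 and Tap1. Class II promoters are known for an X box, bound by the RFX complex and CREB, followed by a Y box, bound by NF-Y. Motifs were searched on both strands. The Y box core GATTGG was in the promoters of 6 of these 7 genes, and in 16.1% of all 32851 promoters. It began 49 bases before the start in H2-Aa, 60 in H2-Eb1 and 62 in H2-DMb1, each on the strand of the gene. Psmb9 and Tap1 share a single GATTGG, because their starts are only 225 bases apart.

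For the X box, the letters ACAGATG were searched first and were found in 1 of the 7 genes, H2-Aa, on the opposite strand 232 bases before the start, against 5.01% of all promoters. After these promoters had been read, AACNGATG, which can overlap ACAGATG, and TGACGTCA were searched as well. AACNGATG was in H2-Eb1 and H2-DMb1 (2.32% of all promoters) and TGACGTCA in H2-Aa (1.79%). Since these letters were chosen with the promoters in view, their presence there is no finding. A GAS element (TTCNNNGAA) was in Psmb8 alone, against 8.30% of all promoters, and an IRF element (GAAANNGAA) was in 0 of the 7, against 8.56%. A match is a description of letters and not a bound site.

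The promoters of H2-Aa and H2-Eb1, which were both downregulated, are shown from 110 to 21 bases before the start, on the strand of the gene and outside every annotated exon. By exact match they lie in mm9 at chr17:34424789-34424878 on the minus strand and chr17:34442702-34442791 on the plus strand. Capitals mark TGACGTCA or AACNGATG and the Y box core, which in H2-Eb1 occurs once more on the opposite strand.
H2-Aa: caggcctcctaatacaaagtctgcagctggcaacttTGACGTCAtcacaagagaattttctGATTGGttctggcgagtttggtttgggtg
H2-Eb1: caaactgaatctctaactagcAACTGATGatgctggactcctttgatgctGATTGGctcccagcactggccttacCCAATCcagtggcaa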

How the data were processed

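Single-end RNA-seq of polyadenylated RNA from 3 Control and 3 FeD kidneys was used. Per the submitters' notes, the authors processed reads with CASAVA 1.8.2, Trimmomatic, TopHat2 2.0.11 (mm9) and HTSeq, and deposited raw counts per gene symbol, not normalized. The annotation, counting mode and strand setting are not given in the sources used here. Groups came from the sample titles. The comparison used edgeR 4.0.16 under R 4.3.3 (filterByExpr, TMM, glmQLFit, glmQLFTest) without a block, with Benjamini-Hochberg adjustment over 15145 genes. The standard error was the log2 fold change divided by the square root of F. The procedure was tested on simulated counts. Alternatives used DESeq2 1.42.0, limma-voom 3.58.1, other scalings and filters, the replicate number as a block, and each kidney left out. Leaving out globin and mitochondrial genes changed no value, since none of them was tested. Ratios of raw counts were compared by an exact permutation test in SciPy. Positions and exon lengths came from the GENCODE annotation of NCBIM37 (mm9), with the entries of 1 symbol merged for Ciita and Psmb9.

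The members and all lists were chosen with earlier results of these data known. Every member is named, and of each other list the genes past the adjusted P with the largest changes (up to 4 in each direction) and the 2 most abundant of those, and the 5 genes most like the class II chains. Any gene outside this rule was picked with its values known, as were the ratios of Cd74 to the chains, the letters AACNGATG and TGACGTCA and the lists with each kidney left out. Libraries of a group differed beyond sampling noise (chi-square per degree of freedom 3.77 to 30.4), and the coefficient of variation between kidneys was 0.128. Some listed genes are not reported here by name.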

Additional observations from a re-analysis of the deposited data

How the results depend on the processing

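Over 13 alternatives for each of the 10 genes, 118 results kept the direction and the side of the threshold, 7 lost a call (all H2-Ab1), 3 gained a call (all Ciita) and 2 changed sign. A further alternative, without 12 globin and mitochondrial genes, tested nothing, since none of them had passed the filter on low counts and all values were identical. With each kidney left out, H2-DMa ranged from -0.046 (without Control kidney 3) to 0.33 and H2-DMb1 from -0.35 to 0.015 (without FeD kidney 3); neither passed in any setting. H2-Ab1 also lost its call with library size alone (P adj = 0.054), with at least 10 counts in every kidney (0.052) and under limma-voom (0.052); the cause was not tested. The number of the 10 genes lower at the adjusted P was 6 to 8 with each kidney left out, and with the 2-fold threshold it was 2 to 4. The replicate block called 7 of the 10 lower and 3344 genes lower and 3100 higher in all, and it changed no call among the 10. Same-numbered kidneys deviated from their group means with correlations of -0.16, 0.0001 and -0.03, beside -0.09 to 0.17 for kidneys of different numbers. No pairing by number was seen, but 3 kidneys per group are too few to exclude one. Among the lists, leaving out each kidney in turn was chosen after the data had been seen. It gave 0 to 1 other class II genes lower, 1 to 2 promoter factors lower and 0 to 2 higher, and 1 to 2 endosomal genes lower. It also gave 4 to 7 constitutive proteasome genes lower, and 0 to 1 costimulatory and coinhibitory genes lower and 0 to 2 higher. Of the markers, it gave 0 to 1 dendritic cell lower and 0 to 1 higher, 1 to 4 B cell lower, 1 to 2 macrophage lower, 1 to 3 monocyte and neutrophil higher, 0 to 1 leukocyte lower and 0 to 1 higher, 3 to 6 endothelial lower and 0 to 1 higher, 0 to 1 erythroid lower, and 1 to 2 neighbouring tissue lower and 0 to 1 higher. With library size alone, 0 leukocyte markers and 0 neighbouring tissue markers were higher. With each kidney left out, genes lower in all numbered 2618 to 3817 and genes higher 2401 to 3937. Low depth limits Ciita, H2-Ob and the lymphocyte markers.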
